A study of Mus musculus with 18 samples.

Results

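The MAP kinase kinase kinases (MAP3Ks) are the top tier of the MAP kinase cascade: an activated MAP3K phosphorylates a MAP kinase kinase (MAP2K), which in turn phosphorylates a MAP kinase such as ERK, JNK, p38 or ERK5. Different MAP3Ks receive different inputs, so that cytokines, growth factors, TGFβ family ligands and cell stress can reach the same few MAP kinases, and some MAP3Ks also feed the NF-κB pathway. In the embryo these routes take part in heart and vessel formation, neural tube closure and limb patterning. The MAP3Ks described here are the genes whose symbol begins with *Map3k* in the study's own list of 170 signalling components, without the mixed lineage kinases *Map3k9* to *Map3k13*. These are 7 genes of the 12241 identifiers found in the deposited tables: *Map3k1* (UCSC identifier uc007rwa.1), *Map3k2* (uc008ejd.2), *Map3k3* (uc007lyc.1), *Map3k4* (uc008akn.1), *Map3k5* (uc007enm.2), *Map3k7* (uc008seq.2) and *Map3k14* (uc007lua.1). All 7 are in the mesoderm table and 6 are in the table of the neural tube and forelimb, which does not list *Map3k5*. The study compiled its list beside mesoderm values from these same samples, so the direction of the list as a whole is not independent evidence.

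Mouse embryos at E11.5 were profiled by RNA-Seq, which counts mRNA, and by Ribo-Seq, which counts ribosome-protected fragments (RPFs), the stretches of mRNA that ribosomes shield from nuclease. Translational efficiency (TE) is the ratio of RPFs to mRNA on the coding sequence (CDS) of a gene. Mesoderm cells were GFP+ cells sorted from R26-mTmGflox/+; Tg(T-cre)1LWD/J/+ embryos, in which Cre driven by the *T* promoter switches a membrane reporter from Tomato to GFP in descendants of the primitive streak, so this sample mixes many mesodermal lineages of the whole embryo. Neural tube (NT) and forelimb bud (FL) tissue came by microdissection from the same embryos of genotype FVB. Both hold every cell type of the dissected piece, and the labels name no transgene in them. All tissue was handled in cycloheximide, which arrests ribosomes. Each tissue and library type has 3 replicates, making 18 libraries in 6 groups. In such tissues, fewer cells that express a gene and less RNA per cell cannot be told apart.

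Reads on the listed genes numbered 38054003 to 50136443 per mesoderm RNA-Seq library, 11000015 to 16802829 per mesoderm Ribo-Seq library, 24555103 to 33061460 per NT or FL RNA-Seq library, 16710643 to 31993255 per NT Ribo-Seq library and 12967893 to 17231298 per FL Ribo-Seq library. The mesenchymal markers *Pdgfra* and *Pdgfrb* summed to 17354 to 20152.0 normalized reads in FL RNA-Seq and 1586 to 1828 in NT RNA-Seq. The 3 neural markers measured (*Ntrk2*, *Gpr19* and *Gpr27*, of 5 listed) summed to 742 to 956 in FL and 3857 to 4028 in NT. Of these, *Gpr27* overlapped between the tissues, at 339.9 to 524.5 in FL RNA-Seq and 349.6 to 448.9 in NT RNA-Seq. In mesoderm RNA-Seq all 5 were measured and summed to 1152 to 2248. The 5 endothelial markers summed to 3336 to 4633 in FL RNA-Seq, 4289 to 4577 in NT RNA-Seq and 1517 to 3717 in mesoderm RNA-Seq. The macrophage marker *Csf1r* ranged from 391 to 467 in FL RNA-Seq, from 461 to 608 in NT RNA-Seq and from 697 to 964 in mesoderm RNA-Seq. The part of these other cell types in the results below was not tested.

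Ribo-Seq replicate 3 stood apart in both NT and FL. On log2(normalized reads + 1) over 11231 genes, it correlated with replicates 1 and 2 of its own tissue at 0.933 and 0.934 in NT and at 0.886 and 0.896 in FL, whereas replicates 1 and 2 correlated with each other at 0.989 in NT and 0.976 in FL. It also lay closer to the other tissue than replicates 1 and 2 did: NT replicate 3 correlated with FL replicates 1 and 2 at 0.770 and 0.779, and FL replicate 3 with NT replicates 1 and 2 at 0.823 and 0.823, against 0.707 between NT replicate 1 and FL replicate 1. Marker genes in it differed between the tissues in the direction of the labels, but some lay far from replicates 1 and 2. *Ntrk2* had 3720 normalized RPFs in NT replicate 3 and 370.3 in FL replicate 3, beside 2966 to 3053 and 346 to 360.2 in replicates 1 and 2. In FL replicate 3 *Pdgfra* had 23601 normalized RPFs beside 6897 and 7313 in replicates 1 and 2, *Pdgfrb* had 7311 beside 2375 and 2581, and *Csf1r* had 989.9 beside 1786 and 1705. In NT replicate 3 *Pdgfra* had 969.8 beside 1095 and 1065, *Pdgfrb* had 1590.2 beside 1656 and 1539, and *Csf1r* had 1181 beside 703 and 820.5. The part of these shifts in the results was not tested. Across genes, the deviation of replicate 3 from the mean of replicates 1 and 2 ran in opposite directions in the 2 tissues (Pearson's r = -0.58, a description over genes that share these 6 libraries). *Map3k2* and *Map3k4* lie far along this pattern. *Map3k2* deviated by -1.69 in NT and 1.62 in FL (log2) and *Map3k4* by -1.16 and 1.76, whereas the other 4 measured MAP3Ks deviated by -0.19 to 0.38 in NT and -0.11 to 0.59 in FL. Over the 151 genes of the study's list in this table, the FL deviation correlated with the logarithm of CDS length at 0.64 and with the GC content of the CDS at -0.02, and the NT deviation at -0.20 and 0.52. TE and the changes between NT and FL are therefore given with and without Ribo-Seq replicate 3 of both tissues, an alternative that was added after the data were seen. The levels per length, the order by TE and the most similar genes are given with all libraries only.

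**Figure D1:**
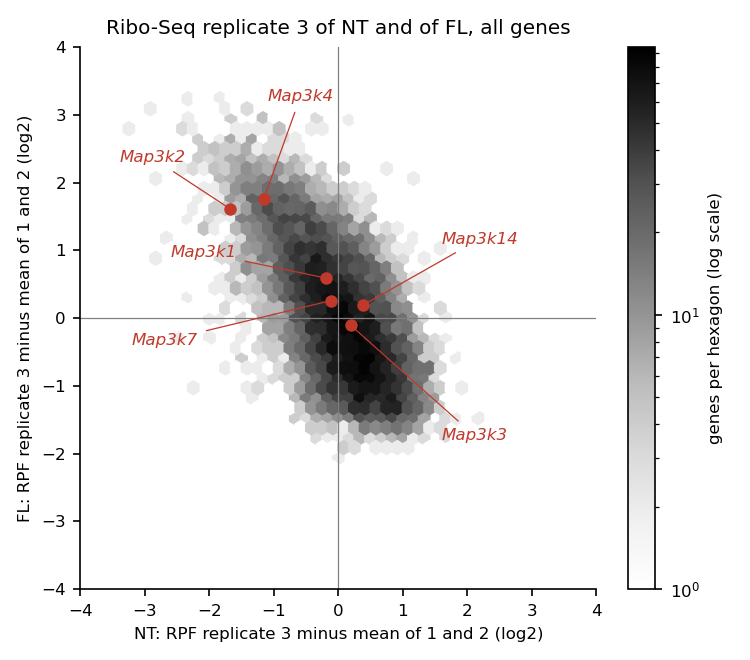
Each gene of the NT and FL table by the log2 deviation of its normalized RPFs in replicate 3 from the mean of replicates 1 and 2, in NT (horizontal axis) and FL (vertical axis), with darker hexagons holding more genes and the 6 measured MAP3Ks in red. *Map3k2* and *Map3k4* sit at the upper left, at -1.69 and 1.62 and at -1.16 and 1.76, while the other 4 lie near the centre.

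Of the 7 genes, the 6 with sequence shown here lie in GENCODE M21 (GRCm38, the assembly of mm10) as follows, *Map3k1* at chr13:111746428-111808993 on the minus strand, *Map3k3* at chr11:106084613-106155446 on the plus strand, *Map3k4* at chr17:12227621-12318796 on the minus strand, *Map3k5* at chr10:19934472-20142753 on the plus strand, *Map3k7* at chr4:31964097-32023467 on the plus strand and *Map3k14* at chr11:103219762-103267472 on the minus strand. TE reports how many ribosomes sit on the CDS per mRNA, and ribosomes enter the CDS at the start codon, so their start codons are set out here from 5′ to 3′, from 9 bases before the ATG (in capitals) to 3 bases after it, in the coding transcript with the longest CDS.
Map3k1: cgagagaaaATGgcg
Map3k3: atcgccaccATGgat
Map3k4: ggtgcacggATGaga
Map3k5: caggcagagATGggc
Map3k7: cgggggatcATGtcg
Map3k14: gcctgggagATGgcc

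A purine before the ATG and a G after it, that is ANNATGG or GNNATGG on the sense strand, is the context that favours initiation. It was present in 5 of the 7 genes (*Map3k1*, *Map3k2*, *Map3k3*, *Map3k5* and *Map3k14*) and in 41.0% of 20349 coding genes. *Map3k7* has only the purine (ANNATG or GNNATG, 6 of the 7 genes and 84.0% of coding genes), and *Map3k4* has neither. The same transcripts have 0 (*Map3k7*, *Map3k14*), 1 (*Map3k1*, *Map3k5*), 2 (*Map3k4*) or 3 (*Map3k2*, *Map3k3*) upstream AUGs in annotated 5′-UTRs of 24 to 421 nt, and 51.2% of coding genes have at least 1. The CDS ranges from 1821 nt in *Map3k7* to 4794 nt in *Map3k4*, against a median of 1194 nt over coding genes, and its GC content from 45.6% in *Map3k2* to 59.1% in *Map3k14*. The isoforms annotated here may not be those on which reads were counted.

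*Map3k7* encodes TAK1, which carries TGFβ, BMP, interleukin 1 and TNF signals to JNK, p38 and NF-κB, and it had the highest level per length in every group. Per kb of counted CDS, its mRNA was at 1303 ± 233 normalized reads in mesoderm (mean ± SD, n = 3 here and below), 1296 ± 307 in NT and 1429 ± 64.7 in FL. Next came *Map3k3* at 764 ± 90.6, 674 ± 96.1 and 881 ± 43.1 and *Map3k4* at 642 ± 50.4, 572 ± 57.1 and 640.5 ± 11.4. *Map3k1* lay lower, at 331 ± 29.0, 248 ± 22.9 and 287 ± 13.4 per kb, and *Map3k2* at 151 ± 57.8, 248 ± 99.6 and 230.1 ± 45.0. *Map3k14*, at 130.3 ± 12.8, 156 ± 11.1 and 101 ± 6.58 per kb, and *Map3k5*, at 100.0 ± 19.5 in mesoderm, had the lowest mRNA levels. The 2 tables were normalized separately, so levels in mesoderm and in NT or FL are set side by side only.

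On ribosomes the order was different. *Map3k1* rose from the 4th place of 7 for mRNA to the 2nd for RPFs in mesoderm, with 391 ± 58.0 normalized RPFs per kb beside 275 ± 41.8 for *Map3k3* and 238 ± 118 for *Map3k4*, both of which had higher mRNA. In NT its 249.9 ± 21.8 RPFs per kb exceeded the 187 ± 14.9 of *Map3k3*, and in FL its 253 ± 63.3 lay beside 322 ± 20.6. *Map3k14* had the fewest RPFs per kb in every tissue, at 27.5 ± 5.02 in mesoderm, 65.0 ± 10.8 in NT and 27.2 ± 6.43 in FL. These rest on 29 to 57 reads per library in mesoderm, 147 to 237 in NT and 26 to 56 in FL. *Map3k2* had 38 to 114, 68 to 461 and 22 to 144 Ribo-Seq reads, so that counting error alone is large for these genes. In *Map3k7*, 32.6% of the 28-nt windows of the counted CDS also occur in a transcript of the processed pseudogene *Gm8188*, and the share was 3.34% in *Map3k3*, 3.21% in *Map3k4*, 0.06% in *Map3k2* and 0% in the other genes. The authors kept uniquely mapped reads, and whether that pseudogene was in their reference is not given in the sources used here. Both the level and the TE of *Map3k7* in every tissue are therefore uncertain.

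**Figure D2:**
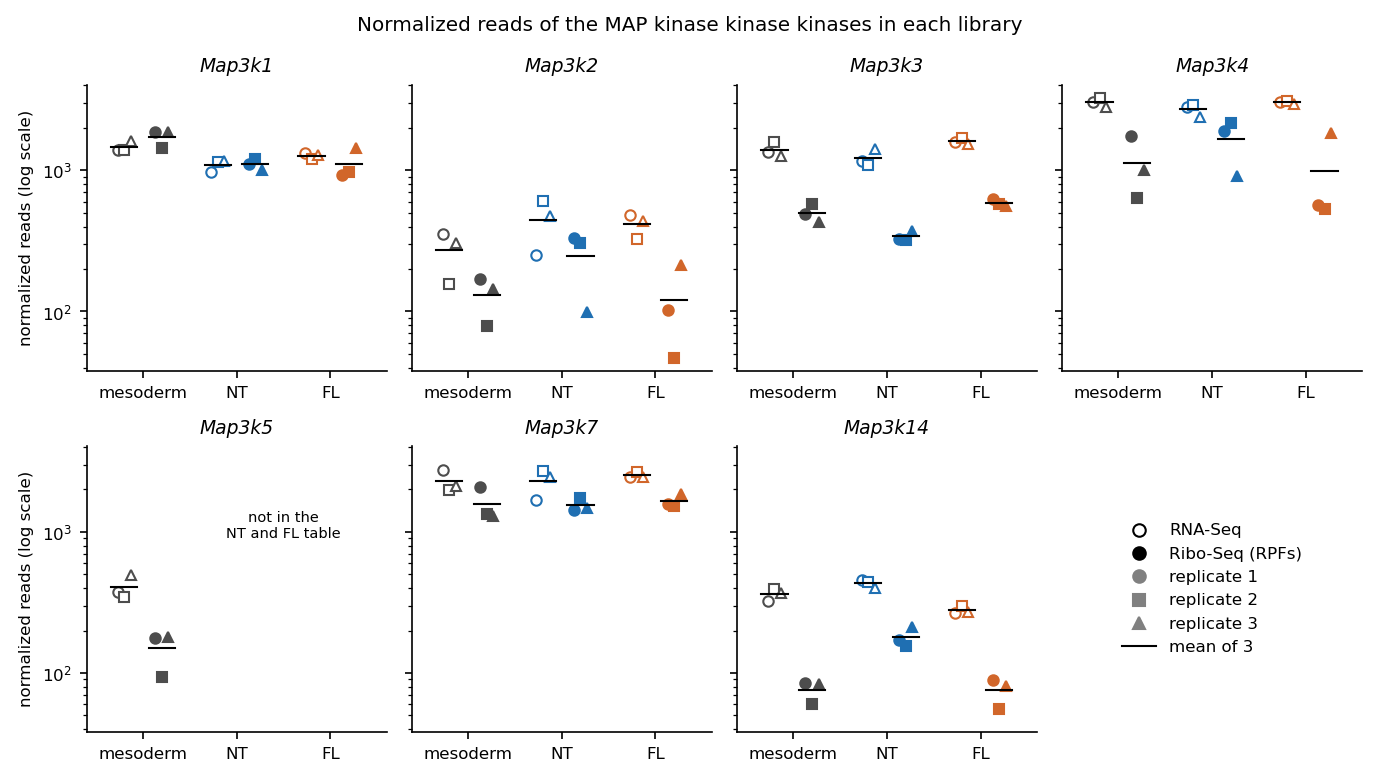
Normalized reads of each MAP3K (log scale) in each library, with open symbols for RNA-Seq, filled symbols for Ribo-Seq, a symbol shape per replicate and a bar at the mean of 3. RPFs sit at the level of mRNA for *Map3k1* and far under it for *Map3k14* and *Map3k3*, and in *Map3k2* and *Map3k4* replicate 3 of Ribo-Seq (triangles) goes the opposite way in NT and FL. The 2 tables were normalized separately.

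TE in mesoderm was below that of the median gene for 6 of the 7 MAP3Ks. *Map3k14* had the lowest TE and was called TE-low, a call that took a distance from the median of 3-fold or more together with an adjusted p below 0.05. It was the only MAP3K called, 1 of 7, against 10.9% of all 12064 genes, and none was TE-high (1.17% of all genes). *Map3k14* encodes NIK, the kinase that starts the non-canonical NF-κB pathway by phosphorylating IKKα, and its protein is kept scarce in resting cells by continuous degradation. It had 322, 391 and 369 normalized mRNA reads in replicates 1, 2 and 3 and 84.9, 60.2 and 83.5 normalized RPFs. Every RPF value was below every mRNA value. Its log2 TE was -2.28 (SE 0.22, limma adjusted p = 1.4e-05), which is 20.7% of the TE of the median gene and at percentile 3.96 of all genes.

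*Map3k1* encodes MEKK1, which activates JNK through *Map2k4* and *Map2k7* and also carries a ubiquitin ligase domain. It was the only MAP3K whose mesoderm TE lay above the median, with 1389.9, 1388 and 1612 normalized mRNA reads and 1878, 1433 and 1877 normalized RPFs. The RPF and mRNA values overlapped, and log2 TE was 0.20 (SE 0.17, limma adjusted p = 0.33), with a 95% confidence interval of -0.18 to 0.58.

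The other 5 MAP3Ks lay between them. *Map3k4*, which encodes MEKK4, an activator of p38 and JNK that mouse neural tube closure depends on, had 3028, 3284 and 2807 normalized mRNA reads and 1739.8, 639 and 1003 normalized RPFs. Its RPFs varied most between replicates, and its log2 TE of -1.58 (SE 0.26, limma adjusted p = 0.00031) lay 2.995-fold below the median, just outside the 3-fold limit. *Map3k5* encodes ASK1, which thioredoxin holds inactive until cells meet oxidative stress. It had 378, 348 and 499 normalized mRNA reads and 176, 93.3 and 181 normalized RPFs, with a log2 TE of -1.52 (SE 0.21, limma adjusted p = 0.00012).

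*Map3k3* and *Map3k2* encode the related kinases MEKK3 and MEKK2, which activate ERK5 (*Mapk7*) through *Map2k5*, and MEKK3 is required for heart and vessel development. *Map3k3* had 1339, 1576 and 1258 normalized mRNA reads and 495, 581 and 429 normalized RPFs. Its log2 TE of -1.51 (SE 0.17, limma adjusted p = 3e-05) ranged only from -1.59 to -1.47 between replicates. *Map3k2* had 355, 156 and 308 normalized mRNA reads and 169.8, 78.8 and 145 normalized RPFs. Replicate 2 was lowest in both library types, so that its log2 TE of -1.07 (SE 0.20, limma adjusted p = 0.00066) was steady at -1.12 to -1.01. *Map3k7* had 2763, 1994 and 2126 normalized mRNA reads, 2063, 1346 and 1303 normalized RPFs and a log2 TE of -0.60 (SE 0.17, limma adjusted p = 0.0092).

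With no fold minimum, 6 of the 7 MAP3Ks passed an adjusted p of 0.05 below the median, as did 34.2% of all genes. The count of TE-low MAP3Ks depended on the replicates: it was 3 of 7 without replicate 1 (*Map3k14*, *Map3k4* at -1.94 and *Map3k5* at -1.69, against 11.8% of all genes), 2 of 7 without replicate 3 (*Map3k14* and *Map3k4* at -1.61, against 11.6%) and 1 of 7 without replicate 2.

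In NT, *Map3k3* was the TE-low MAP3K, 1 of 6, against 4.13% of all 11231 genes, and none was TE-high (0.436% of all genes). It had 1168, 1089.8 and 1425 normalized mRNA reads and 327, 324 and 373 normalized RPFs, and every RPF value lay far below every mRNA value. Its log2 TE was -1.87 (SE 0.19, limma adjusted p = 7e-05), at percentile 2.81 of all genes. *Map3k14* followed with 456, 442 and 397 normalized mRNA reads, 171, 155 and 213 normalized RPFs and a log2 TE of -1.30 (SE 0.26, limma adjusted p = 0.0037), short of 3-fold.

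*Map3k2* and *Map3k4* could not be placed closely in NT. *Map3k2* had 253, 607 and 478 normalized mRNA reads and 333, 306 and 98.6 normalized RPFs. Its log2 TE averaged -0.98 (SE 0.56, limma adjusted p = 0.20). It spanned -2.30 to 0.37 when libraries were matched by replicate number, a pairing that the sources do not state for NT. *Map3k4* had 2799.9, 2922 and 2406 normalized mRNA reads and 1887, 2183 and 910.4 normalized RPFs, with a log2 TE of -0.83 (SE 0.42, limma adjusted p = 0.16). In both genes Ribo-Seq replicate 3 was the low value. Without Ribo-Seq replicate 3 of either tissue, log2 TE was -0.43 (SE 0.39, adjusted p = 0.40) for *Map3k2* and -0.45 (SE 0.14, adjusted p = 0.019) for *Map3k4*, and *Map3k3*, at -1.94, was still the only TE-low MAP3K, against 3.90% of all genes.

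*Map3k7* had 1674, 2711 and 2461 normalized mRNA reads and 1434, 1747 and 1466 normalized RPFs in NT, with a log2 TE of -0.56 (SE 0.21, limma adjusted p = 0.061). *Map3k1* had 980.2, 1149.8 and 1160.2 normalized mRNA reads and 1104, 1202 and 1009 normalized RPFs. Its log2 TE of -0.02 (SE 0.20, limma adjusted p = 0.96, 95% confidence interval -0.46 to 0.42) put it at percentile 49.0 of all genes. Without Ribo-Seq replicate 3 of either tissue, log2 TE in NT was -0.53 (SE 0.19, limma adjusted p = 0.035) for *Map3k7*, 0.04 (SE 0.15, adjusted p = 0.85) for *Map3k1* and -1.43 (SE 0.26, adjusted p = 0.001) for *Map3k14*.

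In FL, 3 of the 6 MAP3Ks, *Map3k2*, *Map3k14* and *Map3k4*, were TE-low, against 13.4% of all genes, and none was TE-high (6.25% of all genes). *Map3k14* had 266, 299 and 270.1 normalized mRNA reads and 89.8, 55.4 and 80.6 normalized RPFs, and its log2 TE was -1.90 (SE 0.26, limma adjusted p = 0.00018). *Map3k4* had 3038, 3083 and 2975 normalized mRNA reads, nearly alike, and 568, 529 and 1853 normalized RPFs. Its RPFs in replicate 3 were over 3 times those of replicates 1 and 2, and log2 TE was -1.88 (SE 0.42, limma adjusted p = 0.0025). *Map3k2* had 483, 325 and 434 normalized mRNA reads and 103, 46.9 and 215 normalized RPFs, with a log2 TE of -2.00 (SE 0.56, limma adjusted p = 0.0082).

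Without Ribo-Seq replicate 3 of either tissue the same 3 genes were TE-low in FL, against 18.2% of all genes, with *Map3k2* at -2.55 (SE 0.39), *Map3k4* at -2.47 (SE 0.14) and *Map3k14* at -1.97 (SE 0.26). Without FL Ribo-Seq replicate 2 only *Map3k14* was called, 1 of 6 against 11.0% of all genes, and *Map3k2* (-1.46) and *Map3k4* (-1.57) no longer reached 3-fold.

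*Map3k3* had 1600.2, 1684 and 1527 normalized mRNA reads and 629, 573 and 557 normalized RPFs in FL, with a log2 TE of -1.45 (SE 0.19, limma adjusted p = 0.00013), short of 3-fold. *Map3k7* had 2446, 2647 and 2454 normalized mRNA reads, 1568, 1532 and 1854 normalized RPFs and a log2 TE of -0.61 (SE 0.21, limma adjusted p = 0.022). *Map3k1* had 1323, 1205 and 1276 normalized mRNA reads and 933, 978 and 1439 normalized RPFs, and its log2 TE of -0.21 (SE 0.20, limma adjusted p = 0.38) was again not called. Without Ribo-Seq replicate 3 of either tissue, log2 TE in FL was -0.41 (SE 0.15, limma adjusted p = 0.02) for *Map3k1*, which then passed the p threshold but not 3-fold, -0.71 (SE 0.19, adjusted p = 0.004) for *Map3k7* and -1.42 (SE 0.16, adjusted p = 4.4e-06) for *Map3k3*.

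**Figure D3:**
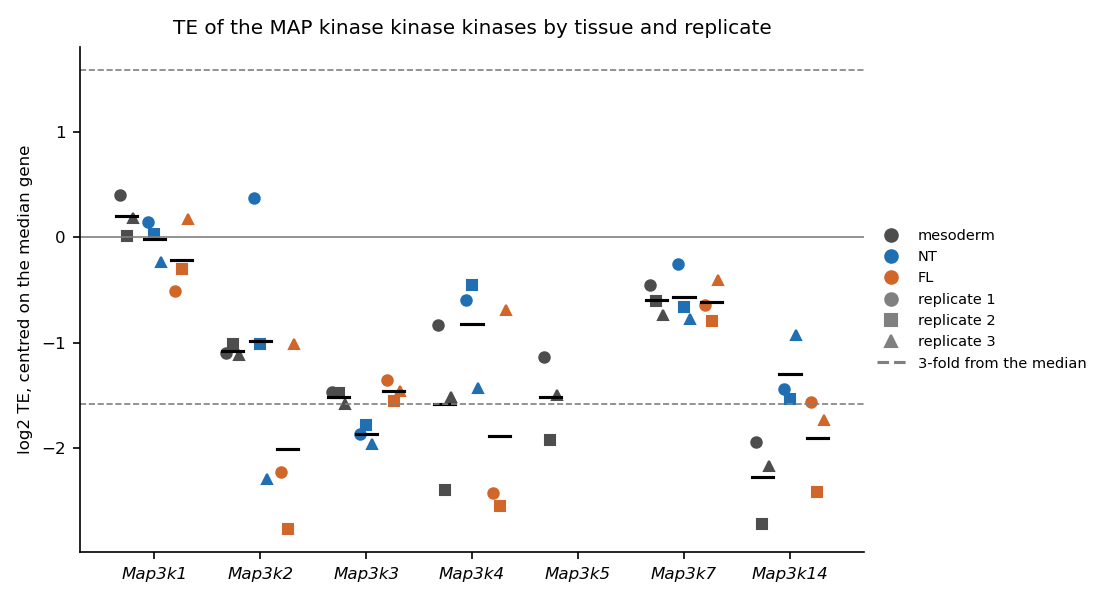
Log2 TE of each MAP3K, centred on the median gene of its table, for each replicate (symbols, Ribo-Seq replicate n minus RNA-Seq replicate n) in mesoderm (grey), NT (blue) and FL (orange), with bars at the mean and dashed lines at 3-fold. *Map3k1* lies around 0 in each tissue and *Map3k7* between -0.79 and -0.25, while *Map3k2* and *Map3k4* spread widely in NT and FL.

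The replicate ranges of TE below match Ribo-Seq and RNA-Seq libraries by number. After microdissection the authors describe splitting dissociated cells between Ribo-Seq and RNA-Seq. That equal numbers in NT and FL mark the same split was neither stated nor seen in the values. Ranges there therefore depend on an assumed matching, while means do not. From the lowest to the highest mean log2 TE, the order in mesoderm was *Map3k14*, *Map3k4*, *Map3k5*, *Map3k3*, *Map3k2*, *Map3k7* and *Map3k1*. The replicate ranges of the first 4 overlapped with their neighbours, whereas *Map3k3*, *Map3k2*, *Map3k7* and *Map3k1* were each separated from the next. In NT the order was *Map3k3*, *Map3k14*, *Map3k2*, *Map3k4*, *Map3k7* and *Map3k1*, with the ranges of *Map3k14* to *Map3k7* overlapping from neighbour to neighbour and *Map3k3* and *Map3k1* separated from theirs. In FL it was *Map3k2*, *Map3k14*, *Map3k4*, *Map3k3*, *Map3k7* and *Map3k1*. There the first 4 overlapped from neighbour to neighbour, *Map3k3* was separated from *Map3k7*, and *Map3k7* overlapped with *Map3k1*. In each tissue *Map3k1* came last and *Map3k7* next to last. From end to end the means spanned 5.56-fold in mesoderm, 3.60-fold in NT and 3.46-fold in FL.

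Between NT and FL, the RPFs of 2 of the 6 MAP3Ks changed, 1 in each direction, at an adjusted p under 0.05. Of all genes, 22.7% fell and 22.6% rose. RPFs of *Map3k14* were 155 to 213 in NT and 55.4 to 89.8 in FL, with no overlap, and fell by 1.26 on the log2 scale (SE 0.26, limma adjusted p = 0.0017). RPFs of *Map3k3* were 324 to 373 in NT and 557 to 629 in FL, again with no overlap, and rose by 0.78 (SE 0.19, limma adjusted p = 0.0046). Both calls held in all 20 alternatives tried, with log2 changes of -1.40 to -1.06 for *Map3k14* and 0.64 to 0.88 for *Map3k3* and adjusted p of at most 0.01 and 0.023. Those alternatives that left out an RNA-Seq library could change only the SE of an RPF change. Over all genes, 42.6% had RPFs that did not overlap between the tissues.

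The mRNA of no MAP3K changed by limma at an adjusted p under 0.05, beside 12.3% of all genes that fell and 10.3% that rose. At an unadjusted p under 0.05 there was 1, *Map3k14*. edgeR called 0 and DESeq2 called 1, again *Map3k14* (log2 change -0.63, DESeq2 adjusted p = 0.032, when 14.4% of all genes fell). The mRNA of *Map3k14* was 397 to 456 in NT and 266 to 299 in FL, with no overlap, a log2 change of -0.63 (SE 0.26, limma adjusted p = 0.10). *Map3k3* mRNA was 1089.8 to 1425 in NT and 1527 to 1684 in FL, also with no overlap, a log2 change of 0.39 (SE 0.19, limma adjusted p = 0.17). In both genes the mRNA difference thus had the sign of the RPF change. In all, 4 of the 6 MAP3Ks had mRNA values that did not overlap between the tissues, as did 47.3% of all genes.

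The change in TE from NT to FL was tested as the interaction of library type with tissue and called where it was 2-fold or more with an adjusted p below 0.2. None of the 6 MAP3Ks was called, beside 0.276% of all genes that fell and 0.107% that rose, and none had an unadjusted p under 0.05 or was called by edgeR or DESeq2. The intervals are wide for some genes. *Map3k4* differed by -1.09 (95% confidence interval -2.38 to 0.19, limma adjusted p = 0.31), *Map3k2* by -1.06 (-2.75 to 0.64, adjusted p = 0.41) and *Map3k14* by -0.64 (-1.43 to 0.15, adjusted p = 0.32). The other 3 were bounded more closely: *Map3k1* differed by -0.23 (-0.85 to 0.39), *Map3k7* by -0.08 (-0.72 to 0.55) and *Map3k3* by 0.38 (-0.19 to 0.94). In this fit a 2-fold change in either direction thus lies outside the interval for these genes. For *Map3k3* the upper limit passed 2-fold in some alternatives, at 1.05 with a replicate block within tissues and 1.03 without FL Ribo-Seq replicate 2.

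For *Map3k4* and *Map3k2* this result turned on Ribo-Seq replicate 3. RPFs of *Map3k4* were 1887 and 2183 in NT replicates 1 and 2 and 568 and 529 in FL replicates 1 and 2, while replicate 3 held 910.4 in NT and 1853 in FL, the reverse order. *Map3k2* had 333 and 306 RPFs in NT replicates 1 and 2, against 103 and 46.9 in FL, and 98.6 and 215 in replicate 3. Without Ribo-Seq replicate 3 of either tissue, the change in TE was -2.11 (SE 0.19, adjusted p = 4.8e-06) for *Map3k4* and -2.20 (SE 0.55, adjusted p = 0.0048) for *Map3k2*, and both passed the threshold, 2 of 6 against 23.4% of all genes. Leaving out replicate 3 of NT Ribo-Seq alone gave -1.50 and -1.65, and of FL Ribo-Seq alone -1.69 and -1.61, each also past the threshold, against 15.7% and 20.4% of all genes that fell. The RPFs of both genes also passed the threshold without both libraries, with log2 changes of -1.89 for *Map3k4* and -2.18 for *Map3k2*, so that 3 of 6 MAP3Ks fell, against 34.7% of all genes, and *Map3k3* rose, against 35.8%. Without both libraries, the changes in TE stayed under 2-fold for *Map3k3* (0.43, limma adjusted p = 0.13), *Map3k14* (-0.62, adjusted p = 0.17), *Map3k1* (-0.53, adjusted p = 0.044) and *Map3k7* (-0.25, adjusted p = 0.44). Each of these except *Map3k7* was thus under the adjusted p of 0.2 and short only of the fold. In the same order, the RPF changes of these genes were then 0.88, -1.20, -0.27 (adjusted p = 0.15) and -0.03 (adjusted p = 0.90). Without both, the mRNA changes of *Map3k14* (limma adjusted p = 0.048) and *Map3k3* (limma adjusted p = 0.047) passed, at log2 changes of -0.63 and 0.39 as with all libraries. Of all genes, 20.1% then fell and 18.9% rose. The fit shares 1 spread per gene over mRNA and RPFs. Leaving out Ribo-Seq libraries therefore also lowered the SE of these mRNA changes, from 0.26 to 0.23 for *Map3k14* and from 0.19 to 0.15 for *Map3k3*.

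**Figure D4:**
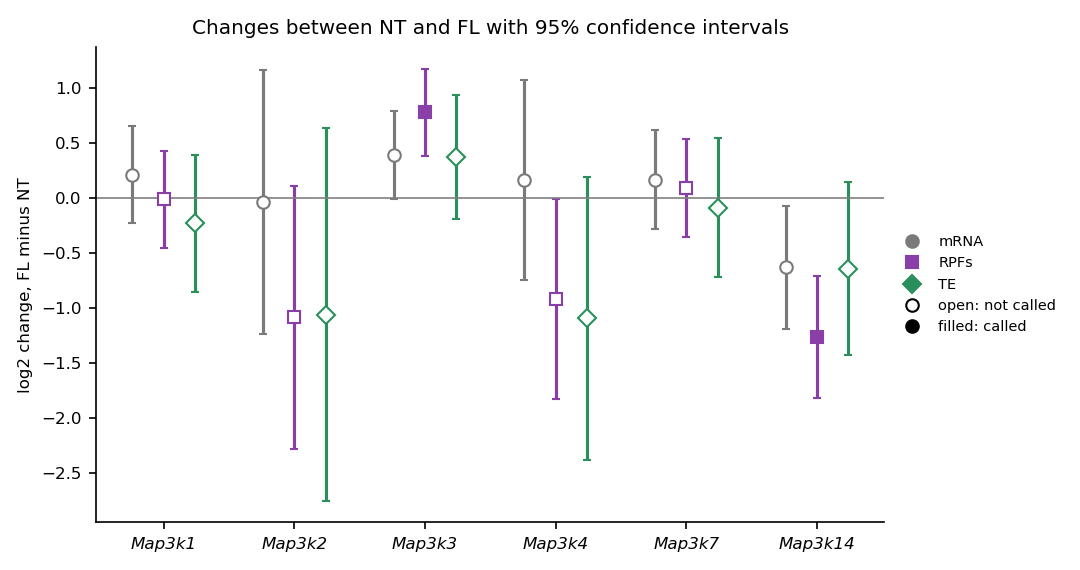
Log2 change from NT to FL in mRNA (grey), RPFs (purple) and TE (green) of the 6 MAP3Ks measured in both tissues, with 95% confidence intervals from the limma fit to 12 libraries and filled symbols for changes that were called. The 2 called changes are the RPFs of *Map3k14*, which fell by 1.26, and of *Map3k3*, which rose by 0.78.

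The other kinases of the cascade in the study's list set these values in context. Among the 5 mixed lineage kinases (*Map3k9* to *Map3k13*), which are MAP3Ks of the JNK pathway, 4 were TE-low in mesoderm, 1 in NT and 4 in FL, with median log2 TE of -2.25, -1.30 and -1.92. The 7 other MAP3Ks had medians of -1.51 in mesoderm, -0.90 in NT and -1.67 in FL, against 0 over all genes by construction and -0.63, -0.38 and -0.67 over the study's whole list. The 3 Raf kinases, the MAP3Ks of the ERK pathway, had medians of -1.44, -1.20 and -1.08, with none called in any tissue. TE-low genes made up 10.9% of all genes in mesoderm, 4.13% in NT and 13.4% in FL.

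Below the MAP3Ks, none of the 7 MAP2Ks was TE-low or TE-high in any tissue, and their medians were -0.22, -0.36 and 0.10. *Map2k4*, the JNK kinase downstream of MEKK1, had a log2 TE of 0.23 in mesoderm, 0.14 in NT and -0.15 in FL. The MAP kinases here were taken by symbol (*Mapk*), whatever their place in the cascade. Among them, 2 of 13 were TE-low in mesoderm, *Mapk4* at -1.98 and *Mapk7*, which MEKK2 and MEKK3 reach through *Map2k5*, at -1.72. The TE-low share in mesoderm was 10.9% over all genes. In NT and FL 1 of 11 was called, *Mapk15*, which was TE-high, as were 0.436% and 6.25% of all genes. The medians of the MAP kinases were -0.57, -0.58 and -0.19. With Ribo-Seq replicate 3 of both tissues left out, the MAP3Ks described here had medians of -0.49 in NT and -1.70 in FL, the mixed lineage kinases -1.01 and -2.52 (1 and 5 of 5 TE-low), the Raf kinases -1.22 and -1.09, the MAP2Ks -0.43 and 0.19 (none called in either) and the MAP kinases -0.39 and -0.13 (none called in NT, and 2 TE-low and 1 TE-high in FL). The TE-low shares of all genes were then 3.90% in NT and 18.2% in FL. Differences between these lists were not tested.

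Between NT and FL, 1 of the 5 mixed lineage kinases fell in TE (*Map3k13*), and no Raf kinase, MAP2K or MAP kinase changed. Among all genes 0.276% fell and 0.107% rose in TE, 12.3% and 10.3% in mRNA, and 22.7% and 22.6% in RPFs. In mRNA, 3 of 5 mixed lineage kinases and 5 of 11 MAP kinases fell, 2 of 7 MAP2Ks rose (*Map2k3* and *Map2k6*) and no Raf kinase changed. In RPFs, 4 of 5 mixed lineage kinases fell, 5 of 11 MAP kinases fell and 1 rose, the same 2 MAP2Ks rose and no Raf kinase changed. When Ribo-Seq replicate 3 of both tissues was left out, TE fell in 4 of 5 mixed lineage kinases, in no Raf kinase or MAP2K and in 1 of 11 MAP kinases, and rose in 1 MAP2K and 1 MAP kinase. In mRNA, 4 mixed lineage kinases, 1 Raf kinase and 7 MAP kinases then fell, and 2 MAP2Ks and 1 MAP kinase rose. In RPFs, 4 mixed lineage kinases, 1 Raf kinase, 1 MAP2K and 6 MAP kinases fell, and 3 MAP2Ks and 1 MAP kinase rose. With these libraries left out, 23.4% of all genes fell in TE. In mRNA 20.1% fell and 18.9% rose, and in RPFs 34.7% and 35.8%. Counts of a list near these shares are not a trait of that list.

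**Figure D5:**
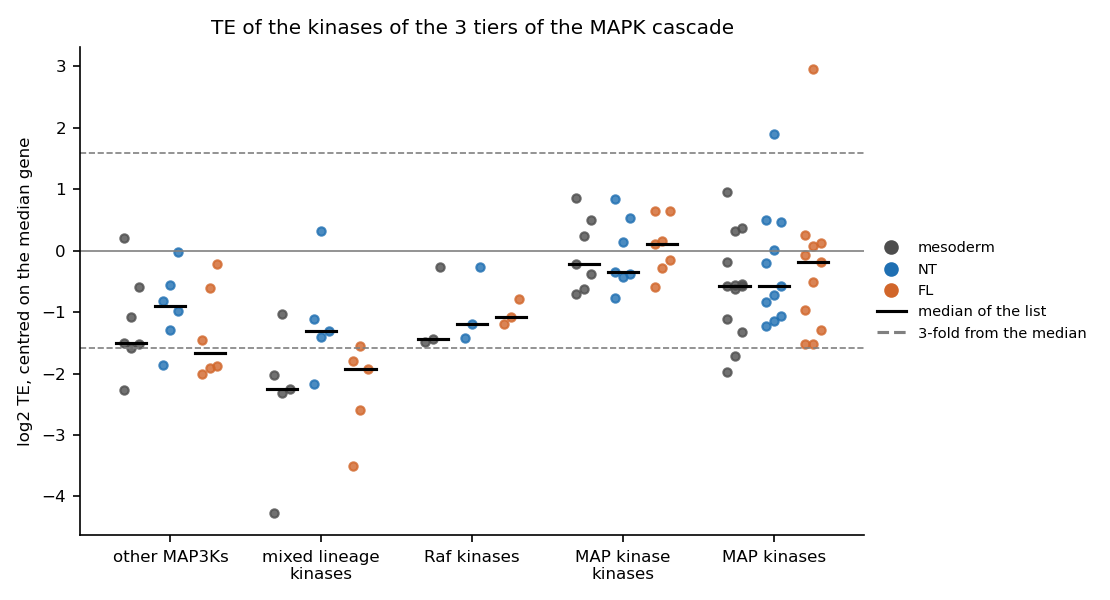
Log2 TE of each kinase, centred on the median gene, in mesoderm (grey), NT (blue) and FL (orange), for the 7 MAP3Ks described here, the 5 mixed lineage kinases, the 3 Raf kinases, the 7 MAP2Ks and the 13 MAP kinases (11 in NT and FL), with bars at list medians and dashed lines at 3-fold. The median of the MAP3Ks lies at -1.51, -0.90 and -1.67, and that of the MAP2Ks at -0.22, -0.36 and 0.10.

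*Map3k1* and *Map3k14*, at the ends of the mesoderm order, were compared with the other 150 genes of the study's list measured in both tables. The measure was the Euclidean distance over 9 log2 TE values (3 replicates in 3 tissues). These values match libraries by replicate number, which in NT and FL is not a known pairing. The genes most like *Map3k1* were *Prkci*, an atypical protein kinase C, at a distance of 0.73, *Map2k4* at 0.75 and *Prkar2a*, a regulatory subunit of protein kinase A, at 0.97, against a median distance of 2.76. The genes most like *Map3k14* were the mixed lineage kinase *Map3k11* at 1.03, *Gpr125* at 1.27 and *Map3k12* at 1.36, against a median distance of 4.50. *Map3k11* had a mean log2 TE of -2.25 in mesoderm, -1.41 in NT and -1.55 in FL, beside -2.28, -1.30 and -1.90 for *Map3k14*.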

How the data were processed

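The authors trimmed adapters with cutadapt, removed rRNA, tRNA and snRNA reads, aligned the rest to the canonical UCSC isoforms of mm10 (Bowtie2 is named in the submitters' processing notes), kept unique reads, assigned them by the A site and counted those on the CDS, leaving out 15 codons at its start and 5 at its end. The deposited signal values are these reads divided by DESeq size factors, per table. In all 18 libraries 100.0% of values were whole multiples of 1 step (tolerance 0.1 step), which gave whole reads for edgeR 4.0.16 and DESeq2 1.42.0 as alternatives.

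limma 3.58.1 was fitted to log2(normalized reads + 1) over all genes of a table with a trended empirical Bayes variance, so folds of genes with few reads are understated. TE was centred on its median over genes. In mesoderm the replicate number was a block, because deviations of RNA-Seq and Ribo-Seq libraries with equal numbers correlated at 0.74, 0.58 and 0.57. NT and FL entered 1 fit of 12 libraries without a block. P-values were Benjamini-Hochberg adjusted over all genes. The limma fit gives a gene 1 spread between samples of a group (3 each), shared by all groups of its table. In the NT and FL fit, uneven Ribo-Seq replicates therefore also widen the SE of the mRNA change. Symbols came from the study's list, whose 170 genes all matched GENCODE M21. The named genes are all 7 members, lists given by counts, and the 3 genes nearest to *Map3k1* and to *Map3k14*. Members, lists and tests were chosen with earlier results of these data known. The fits were tested on simulated data with large planted changes in well-covered genes and no deviating replicate. That test does not bear on Ribo-Seq replicate 3 or on genes with few reads. The authors' own fold changes and p-values were not used.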

Additional observations from a re-analysis of the deposited data

How the results depend on the processing

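Of 714 values of single MAP3Ks under alternatives, 670 kept their direction and their side of the threshold, 25 newly passed it, 2 no longer did and 17 changed sign. Some alternatives could not move the log2 value, only its SE. Examples are TE in NT without an FL library, or an mRNA change without a Ribo-Seq library. The 670 therefore overstate how far the values were tried. The cause of these changes was not tested. With at most 3 libraries a group and 22 to 114 Ribo-Seq reads for *Map3k2*, *Map3k5* and *Map3k14* in several libraries, small differences were not detectable.

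TE-low MAP3Ks in mesoderm numbered 1, and 5 with a 2-fold threshold and 1 to 3 leaving out 1 replicate. They numbered 2 when genes had to average 100 normalized reads. That filter left 1159 TE-low genes, out of a number of genes not given here. In NT the count was 1, and 2 with a 2-fold threshold. In FL it was 3, and 4 with a 2-fold threshold and 1 without FL Ribo-Seq replicate 2. With a 2-fold threshold, TE-low genes rose from 1317 to 2596 of 12064 in mesoderm. Of 11231 genes, they rose from 464 to 1234 in NT and from 1502 to 2581 in FL. TE-high genes rose from 141 to 1582, 49 to 507 and 702 to 2128. In mesoderm, leaving out 1 replicate, RNA-Seq and Ribo-Seq together, gave 72 to 271 TE-high genes. Leaving out 1 library gave 33 to 80 in NT and 378 to 1417 in FL (1422 without Ribo-Seq replicate 3 of either tissue).

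MAP3Ks whose TE fell from NT to FL numbered 0, and 2 without Ribo-Seq replicate 3 of NT, of FL or of both. Over all genes the change in TE fell in 31 and rose in 12, against 287 and 448 by DESeq2, 17 and 20 scaled to total reads, 3 and 1 with the replicate block, 1 to 2288 and 1 to 1767 leaving out 1 library, and 2629 and 2131 without both replicate 3 libraries. In mRNA, MAP3Ks that fell went from 0 to 1 by DESeq2 and, without both, 1 fell and 1 rose, beside 2253 and 2127 of all genes (1380 and 1162 with all libraries). In RPFs, MAP3Ks that fell went from 1 to 3 without both, while the share of all genes that fell went from 22.7% to 34.7%. Without Ribo-Seq replicate 3 of NT alone, the RPF change was -1.30 for *Map3k4* and -1.65 for *Map3k2*. Without that of FL alone, it was -1.50 and -1.62. RPFs of all genes fell in 2551 and rose in 2534, and in 3893 and 4016 without both, and 1541 to 3677 rose leaving out 1 library. In the order by TE, 2 MAP3Ks took another rank in mesoderm and 2 in FL with a pseudocount of 8.

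Changes of sign were all of small values. *Map3k1* TE in NT (-0.02) was -0.10 to 0.04 leaving out 1 library, 0.01 without centring or without NT RNA-Seq replicate 2, 0.03 without NT RNA-Seq replicate 3 and 0.04 without NT Ribo-Seq replicate 3 or both. *Map3k7* change in TE (-0.08) was -0.22 to 0.13 leaving out 1 library (0.01 without NT Ribo-Seq replicate 2), its mRNA change (0.17) was -0.04 to 0.31 leaving out 1 library, and its RPF change (0.09) was -0.05 scaled to total reads and -0.03 without both. *Map3k2* mRNA change (-0.03) was -0.40 to 0.23 leaving out 1 library. *Map3k1* RPF change (-0.01) was 0.02 by DESeq2 and -0.21 to 0.11 leaving out 1 library.

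NT and FL tissue came from the same embryos, but the sources used here do not say that a replicate number marks a shared set of embryos. Dissociated cells were split between Ribo-Seq and RNA-Seq, but the sources do not say that equal numbers mark the same split. Deviations of libraries with equal numbers correlated at -0.28 to 0.35 between RNA-Seq and Ribo-Seq in NT, at 0.05 to 0.12 in FL, at -0.24 to -0.02 between NT and FL RNA-Seq and at -0.58 to -0.29 between NT and FL Ribo-Seq, so pairing by number was neither stated nor seen in these values. The replicate block changed no call of a MAP3K in NT, FL or between them. A replicate block within tissues cannot test mRNA or RPF changes, so a block over both tissues was added after the data were seen.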
